A study of Mus musculus with 24 samples.

Results

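The names miR-709, miR-690, miR-689, miR-1906, miR-1897-3p and miR-805 are 6 of the 650 names carried by a mouse microRNA (miRNA) array. All 6 are entries suspected of being fragments of other RNAs rather than miRNAs. They were chosen by name, with values of these arrays in view: 5 because their signal, once arrays were scaled to a common level, was lowest on bright arrays, and miR-805 because its scaled signal dipped at the middle ages. The slope on array brightness and the dip of miR-805 are therefore given as descriptions, without a test.

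The RNA came from whole lungs of healthy C57BL/6 mice taken after birth. There were 5 arrays for each of day 1, day 4, day 7 and day 14 (2 weeks in the labels) and 4 arrays for day 42 (6 weeks in the labels). The study's title says fetal, whereas its design text and labels give postnatal ages, and the labels' ages were used. The mice carried no engineered allele and received no treatment according to the labels, and each array is a biological replicate of a lung homogenate that mixes all cell types. Endothelial, epithelial, leukocyte and red cell marker miRNAs were detected on all 24 arrays. Of the markers of other organs, the liver marker miR-122 was detected on 8 arrays, the brain marker miR-124 on 0 and the endocrine marker miR-375 on 24. The striated muscle markers miR-1, miR-133a and miR-133b were each detected on 24 arrays, and miR-208b on 19.

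A miRNA is cut from the stem of a hairpin by the enzymes Drosha and Dicer and is then loaded into an Argonaute protein, where its seed, bases 2 to 8, finds target messages. A short RNA can be mistaken for a miRNA when it is a piece of a ribosomal, transfer or mitochondrial RNA, a repeat or another long transcript, and several early entries were later questioned for that reason. An array probe cannot separate these cases, because it reports whatever labelled RNA pairs with it. In the lung, the weeks after birth are the time when simple air sacs are divided into alveoli, and many established miRNAs change over it.

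The RefSeq sequence table (build GRCm38.p6) held a mature sequence for 3 of the 6 names. They are shown because the name alone says nothing about what the probes are meant to catch. They are written 5′ to 3′ with the seed in capitals.
mmu-miR-690: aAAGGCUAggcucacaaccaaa
mmu-miR-1906: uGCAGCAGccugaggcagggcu
mmu-miR-1897-3p: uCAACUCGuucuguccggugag
No seed is shared among the 3. The GC content was 45.5% for miR-690, 68.2% for miR-1906 and 54.5% for miR-1897-3p. The mature miR-690 lies on the minus strand at chr16:28599940-28599961, inside the range of Fgf12, which encodes an intracellular relative of the fibroblast growth factors. The sequence of miR-1906 has 2 copies: Mir1906-1 on the plus strand at chr12:109544588-109544609, inside the imprinted long non-coding RNA gene Meg3, and Mir1906-2 on the minus strand at chrX:88759485-88759506, inside no annotated gene. An array cannot tell the copies apart. The mature miR-1897-3p lies on the plus strand at chr3:34638511-34638532, inside Sox2ot, a long non-coding RNA gene that overlaps Sox2. For miR-709 only the position of its gene was given, chr8:84086099-84086186, inside the range of Rfx1, which encodes a transcription factor. miR-689 and miR-805 are given here by name only.

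Precursors were listed for miR-690 and miR-1897, and are printed with the mature part in capitals to show where it sits in the hairpin.
Mir690 precursor: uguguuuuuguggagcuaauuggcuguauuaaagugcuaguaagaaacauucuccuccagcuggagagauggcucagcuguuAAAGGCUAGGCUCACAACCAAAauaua
Mir1897 precursor: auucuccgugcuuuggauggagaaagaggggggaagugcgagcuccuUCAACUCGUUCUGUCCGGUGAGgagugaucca
Mature miR-690 covers bases 83 to 104 of 109 and mature miR-1897-3p bases 48 to 69 of 79. In a predicted fold (RNAfold), a miRNA arm is normally mostly paired. The Mir690 precursor had a free energy of -29.0 kcal/mol, or -0.27 per base, and 15 of 22 mature bases were paired. Of 991 precursors in the table, 5.35% were less stable per base, and 9.97% of 1635 mature sequences had a smaller share of paired bases. The Mir1897 precursor had -27.4 kcal/mol, or -0.35 per base, with 17 of 22 mature bases paired. For it 26.8% of precursors were less stable per base and 34.1% of mature sequences had a smaller paired share. The medians were -0.41 kcal/mol per base and 81.0% of mature bases paired, so both precursors lay on the less stable side, Mir690 farther out. A stretch of 20 bases of the Mir690 precursor also occurred, on either strand, in 5 of 32851 gene promoter windows (0.0152%), rank 15 among 1005 precursors, whose median was 0 windows. The Mir1897 precursor had 0 such windows. These are descriptions of sequence and of a predicted fold.

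The signal of a name is the sum over its probes of the mean background-subtracted spot brightness, in intensity units, here called the unscaled signal. All 6 names were detected on 24 of 24 arrays, and no miRNA spot was saturated. A level is compared only within a name, because different probes bind with different strength.

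miR-709 had 4562, 3892, 3751, 4559 and 4455 units on the arrays of day 1, and 3928, 3864, 3022, 3849 and 3401 units at day 4. It had 4770, 4173, 4903, 4726 and 4006 units at day 7, and 3464, 4519, 4682, 4020 and 5291 units at day 14. The arrays of day 42 held 3894, 4290, 5648 and 5646 units. The means were 4244 ± 391 (day 1), 3613 ± 391 (day 4), 4516 ± 399 (day 7), 4395 ± 691 (day 14) and 4870 ± 912 (day 42; SD, n = 4, otherwise n = 5). Day 4 was lowest and day 42 highest in the mean, and neighbours in that order overlapped.

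miR-690 had 712, 767, 880, 932 and 1026 units at day 1, and 1300, 1158, 1301, 1156 and 1067 units at day 4. It had 1203, 1083, 946, 1322 and 1376 units at day 7, and 1075, 936, 1873, 1282 and 1084 units at day 14. At day 42 it had 909, 1085, 1291 and 1841 units. The mean was 863 ± 126 (day 1), 1196 ± 102 (day 4), 1186 ± 176 (day 7), 1250 ± 369 (day 14) and 1282 ± 404 (day 42; SD, n = 4, otherwise n = 5). Thus every day 4 array lay above every day 1 array, whereas 1 array each of day 14 and day 42 set the wide spread of the late ages.

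miR-689 had 204, 207, 236, 230 and 268 units at day 1, and 228, 238, 275, 247 and 245 units at day 4. It had 252, 250, 202, 174 and 256 units at day 7, and 254, 249, 311, 341 and 273 units at day 14. At day 42 it had 279, 328, 396 and 341 units. The mean was 229 ± 26.0 (day 1), 247 ± 17.6 (day 4), 227 ± 36.7 (day 7), 286 ± 39.4 (day 14) and 336 ± 48.2 (day 42; SD, n = 4, otherwise n = 5). The ages up to day 7 overlapped, and the day 42 arrays were all above the day 1 arrays, as for 27% of the names tested.

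miR-1906 had 70.8, 77.2, 90.5, 89.1 and 96.9 units at day 1, and 101, 103, 113, 108 and 99.6 units at day 4. It had 110, 97.4, 98.5, 93.4 and 112 units at day 7, and 101, 115, 165, 131 and 117 units at day 14. At day 42 it had 109, 132, 142 and 143 units. The mean was 84.9 ± 10.6 (day 1), 105 ± 5.67 (day 4), 102 ± 8.40 (day 7), 126 ± 24.4 (day 14) and 131 ± 15.4 (day 42; SD, n = 4, otherwise n = 5). The day 4 and day 42 arrays lay entirely above day 1. Of all names tested, 7.14% did so at day 4 and 27% at day 42.

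miR-1897-3p and miR-805 were dim. miR-1897-3p averaged 52.3 ± 8.15 units (day 1), 58.0 ± 5.50 (day 4), 49.7 ± 10.5 (day 7), 57.9 ± 9.13 (day 14) and 66.7 ± 12.0 (day 42; SD, n = 4, otherwise n = 5), over a range of 39.7 to 77.4 units. miR-805 averaged 49.3 ± 15.8 units (day 1), 37.9 ± 7.94 (day 4), 38.9 ± 6.07 (day 7), 31.4 ± 8.28 (day 14) and 46.2 ± 20.8 (day 42; SD, n = 4, otherwise n = 5), over a range of 21.5 to 74.9 units. For all 6 names, the ages next to each other in the order of mean log2 signal overlapped in range: 24 of 24 neighbouring pairs, on the unscaled and on the scaled values alike.

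**Figure D1:**
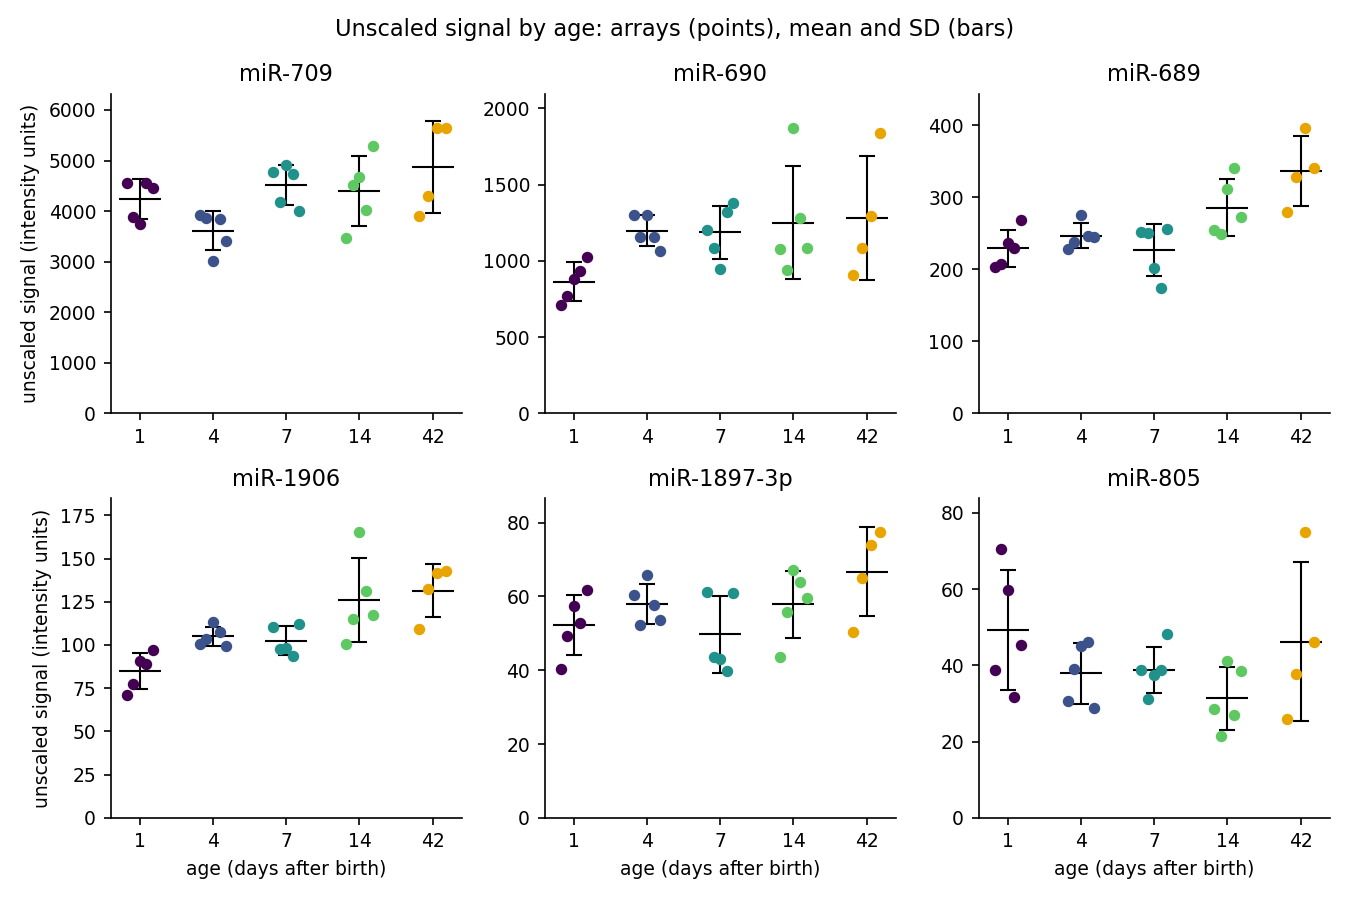
Unscaled signal (intensity units, linear axis from 0) of each of the 6 names by age in days after birth; points are arrays and bars the mean and SD. The day 42 arrays of miR-689 (279 to 396 units) and miR-1906 (109 to 143 units) lie above all day 1 arrays, while the other 4 names overlap between these ages. Of all names tested, 27% lie above day 1 in this way.

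Over all 24 arrays, the highest unscaled signal stood above the lowest by 1.87-fold for miR-709, 2.63-fold for miR-690, 2.27-fold for miR-689, 2.33-fold for miR-1906, 1.95-fold for miR-1897-3p and 3.48-fold for miR-805. The median name among the 228 detected on all arrays spanned 6.24-fold. Array brightness, taken as the 75th percentile of the unscaled signals of those 228 names, itself spanned 5.37-fold, from 923 to 4953 units. By the SD of the log2 signal, ordered from the smallest, miR-709 was number 6 of 228, miR-1897-3p number 10, miR-689 number 11, miR-1906 number 12, miR-690 number 26 and miR-805 number 54. For the first 5 this steadiness restates the property they were chosen for and is no separate finding.

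Brightness moved with age. It averaged 1539 ± 532 units (day 1), 1957 ± 567 (day 4), 2418 ± 249 (day 7), 3239 ± 1079 (day 14) and 3104 ± 1124 (day 42; SD, n = 4, otherwise n = 5), and 50.9% of the variance of its log2 lay between ages. Whether brightness reflects the amount of miRNA in the lung or the handling of the arrays cannot be told apart here.

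Within ages, a doubling of array brightness went with a change in scaled log2 signal (the log2 signal after each array was divided by its brightness) of -1.07 ± 0.10 for miR-709, -1.08 ± 0.15 for miR-690, -0.93 ± 0.10 for miR-689, -0.93 ± 0.10 for miR-1906 and -1.01 ± 0.13 for miR-1897-3p (SE). A slope of -1 means that the unscaled signal stays level when the array brightens. miR-805 had -0.60 ± 0.19. Its scaled log2 signal, the one whose dip chose it, averaged 6.23 ± 0.31 (day 1), 5.52 ± 0.48 (day 4), 5.21 ± 0.31 (day 7), 4.50 ± 0.38 (day 14) and 5.08 ± 0.76 (day 42; SD, n = 4, otherwise n = 5). miR-709 on the same scale averaged 12.71 ± 0.64 (day 1), 12.11 ± 0.47 (day 4), 12.08 ± 0.13 (day 7), 11.66 ± 0.50 (day 14) and 11.89 ± 0.71 (day 42; SD, n = 4, otherwise n = 5), an order of ages unlike that of its unscaled signal. The median slope of the 322 tested names was -0.18, with a lowest slope of -1.11. A slope under -0.9 was found for 15 names. Besides the 5 members these were miR-214, miR-139-3p, the herpesvirus name mghv-miR-M1-2, miR-744, miR-328, miR-455, miR-150, miR-145, miR-878-3p and miR-342-5p. The names just outside that limit were miR-574-5p with -0.90, miR-330* with -0.89 and miR-1224 with -0.89. Such slopes were thus not limited to doubtful names: miR-145, a smooth muscle miRNA, and miR-150, a lymphocyte miRNA, had -0.92 and -0.94.

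**Figure D2:**
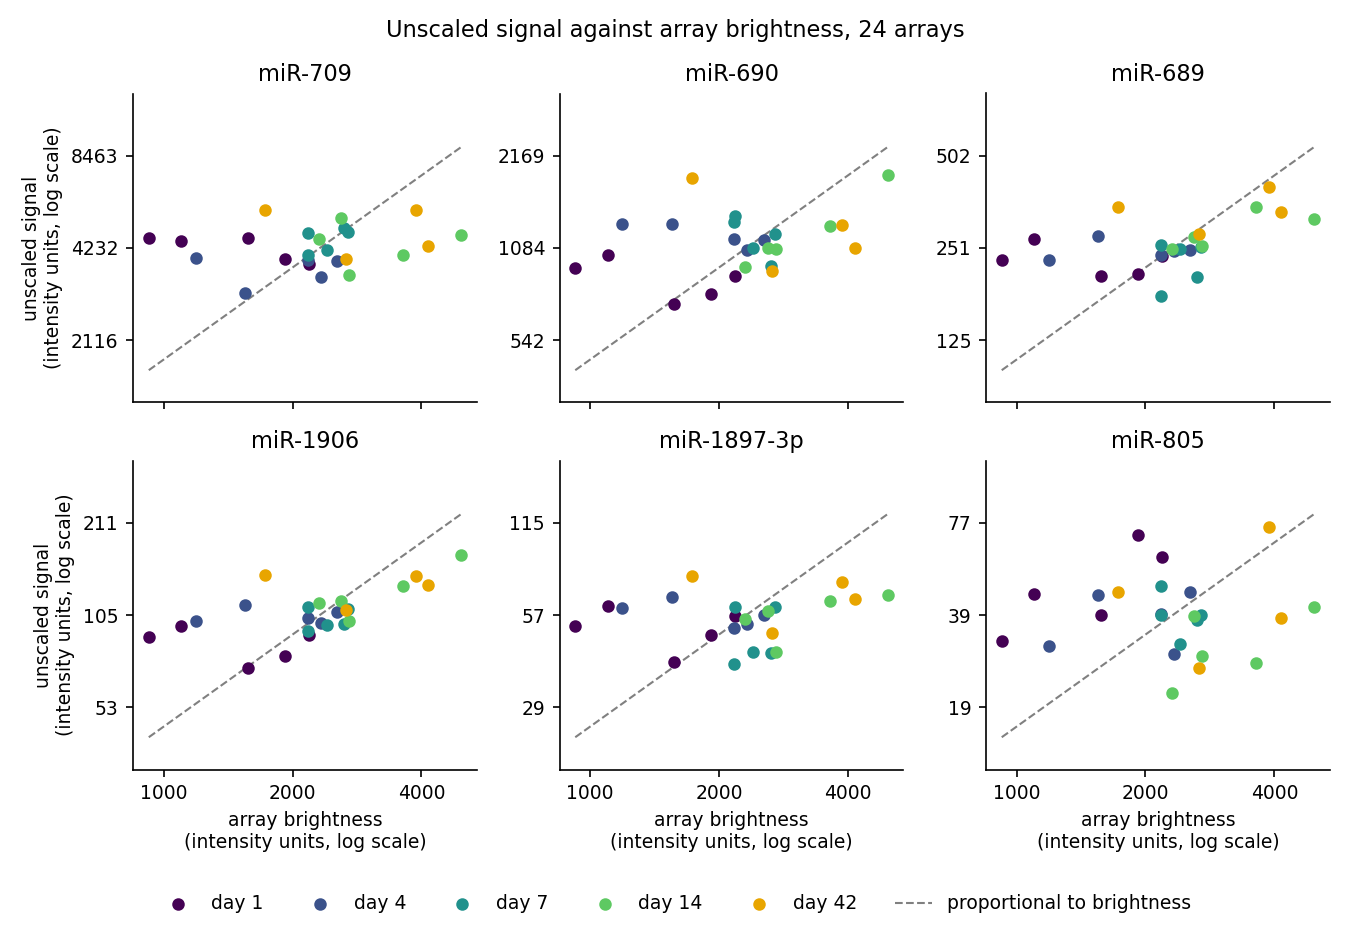
Unscaled signal of each name against array brightness (both in intensity units on log axes, coloured by age); the dashed line has the slope that a signal proportional to brightness would show. The clouds of miR-709, miR-690, miR-689, miR-1906 and miR-1897-3p are flatter than the line; brightness runs from 923 to 4953 units.

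Because brightness differs between ages and chose the members, the ages were tested with log2 brightness held fixed in the model (limma, 322 names). This does not undo the choice of members, because the fitted slope on brightness enters each age difference. The later ages were brighter on average than day 1, so a steep negative slope raises their difference from it. The members' differences and p-values are therefore not independent of how they were chosen. Fitted in this way, an age difference is the same whether or not the arrays are divided by their brightness, apart from values near the floor.

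Day 42 against day 1 compares the young adult with the newborn lung. At equal brightness, 3 of the 6 names were higher at day 42: miR-690 by 1.53-fold (log2 difference 0.61 ± 0.24, adjusted p = 0.031), miR-689 by 1.39-fold (0.48 ± 0.17, adjusted p = 0.0158) and miR-1906 by 1.48-fold (0.56 ± 0.16, adjusted p = 0.00376). The other 3 did not pass: miR-709 differed by 0.26 ± 0.17 (adjusted p = 0.194), miR-1897-3p by 0.36 ± 0.21 (adjusted p = 0.146) and miR-805 by -0.54 ± 0.31 (adjusted p = 0.132). Among all 322 names, 63.4% were called in this comparison, 25.2% higher and 38.2% lower, so a count of 3 in 6 does not set the members apart. The members' median difference was 0.42, beside -0.12 over all names tested, a gap that is not independent of their choice by slope. In whole lung, a change in the share of cells that hold an RNA and a change in its amount per cell cannot be told apart.

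Each of these 3 calls depended on 1 array. Replicate 4 of day 42 was the dimmest array of its age, with a brightness of 1727 units, and held the highest miR-690 signal of the age, 1841 units. Without it the differences were 0.23 for miR-690 (adjusted p = 0.473), 0.41 for miR-689 (adjusted p = 0.0868) and 0.43 for miR-1906 (adjusted p = 0.0547), and none was called, while miR-805 was called lower, by -0.85 (adjusted p = 0.0482). Without replicate 2 of day 1, miR-690 (0.56, adjusted p = 0.0729) and miR-689 (0.41, adjusted p = 0.054) were not called, and miR-690 was also not called without replicate 1 of day 1 (0.54, adjusted p = 0.0692). In the other direction, miR-1897-3p was called higher without replicate 1 of day 42 (0.50, adjusted p = 0.043), and miR-805 lower without its replicate 3 (-0.67, adjusted p = 0.0456).

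Without the brightness term, differences of the scaled log2 signal between day 42 and day 1 were below 0 for every member: -0.82 for miR-709, -0.47 for miR-690, -0.45 for miR-689, -0.37 for miR-1906, -0.66 for miR-1897-3p and -1.14 for miR-805. The sign was thus opposite to that at equal brightness in the 5 members other than miR-805. The unscaled log2 signals differed by 0.18 for miR-709, 0.53 for miR-690, 0.55 for miR-689, 0.63 for miR-1906, 0.35 for miR-1897-3p and -0.14 for miR-805, where the median of all tested names was 0.64. On this scale all day 42 arrays lay above all day 1 arrays for 2 members, miR-689 and miR-1906, as they did for 27% of the names tested. On the scaled values this held for 0 members and 13.4% of names.

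Within slides, of which there were 3 with all ages on each, the unscaled log2 difference of day 42 minus day 1 could be read with 1 or 2 arrays per age. On slides 1, 2 and 3 it was 0.60, 0.68 and 0.44 for miR-689, and 0.74, 0.69 and 0.61 for miR-1906. For miR-690 it was 0.41, 0.50 and 0.96, the last on the slide with replicate 4 of day 42. On the unscaled signal these 3 names were thus above day 1 on each slide. On the scaled signal they were below day 1 on slides 1 and 2 and above it on slide 3: -1.37, -0.25 and 0.80 for miR-690, -1.18, -0.061 and 0.28 for miR-689, and -1.05, -0.056 and 0.45 for miR-1906. Unscaled, the slides gave for miR-709 -0.09, 0.27 and 0.47, for miR-1897-3p 0.50, 0.31 and 0.38, and for miR-805 0.11, -0.67 and -0.18, so that miR-709 and miR-805 changed sign between slides.

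**Figure D3:**
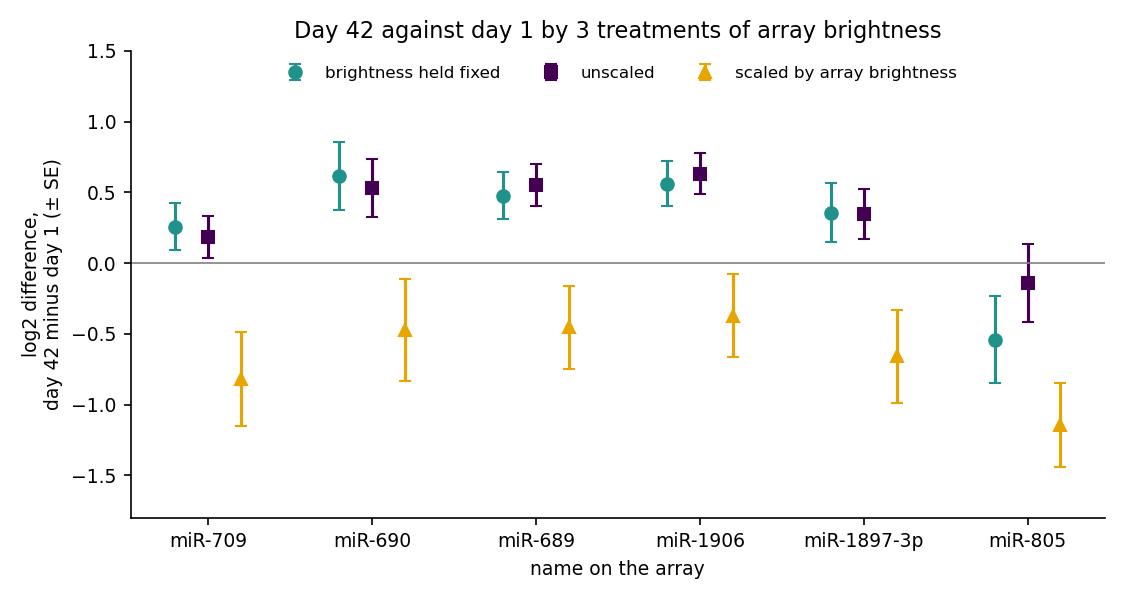
Log2 difference of day 42 minus day 1 for each name (mean and SE of the model) with brightness held fixed, unscaled, and scaled by array brightness. For the 5 names other than miR-805 the unscaled and fixed-brightness values are above 0, from 0.18 to 0.63, miR-805 is at -0.14 unscaled and -0.54 with brightness fixed, and the scaled values are all below 0, from -1.14 to -0.37.

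Day 14 against day 1 covers the main period of alveolar division. At equal brightness, miR-690 was higher by 0.59 ± 0.24 (adjusted p = 0.0445) and miR-1906 by 0.48 ± 0.16 (adjusted p = 0.0141), which makes 2 of the 5 members tested, against 52.8% of all names called and 26.4% called higher. miR-709 differed by 0.12 ± 0.17 (adjusted p = 0.613), miR-689 by 0.24 ± 0.17 (adjusted p = 0.259) and miR-1897-3p by 0.15 ± 0.21 (adjusted p = 0.600). The call of miR-690 was lost when any 1 of 14 of the 24 arrays was left out, among them replicate 4 of day 42 (0.41, adjusted p = 0.147). That of miR-1906 was lost without replicate 2 of day 1 (0.42, adjusted p = 0.0516). miR-805, untested here because of its dip, was at -1.07 ± 0.31.

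In the 4 consecutive steps, 0 of the 20 differences of the 5 tested members passed the threshold in limma. The background of names called was 8.7% for day 4 against day 1, 0.311% for day 7 against day 4, 47.5% for day 14 against day 7 and 42.5% for day 42 against day 14. Unadjusted, 4 of the 20 had a p under 0.05. These were miR-690 at day 4 against day 1 (0.51 ± 0.19, adjusted p = 0.0849), miR-1906 in the same step (0.29 ± 0.12, adjusted p = 0.124), miR-709 at day 7 against day 4 (0.35 ± 0.13, adjusted p = 0.996) and miR-689 at day 14 against day 7 (0.31 ± 0.13, adjusted p = 0.0525). Single arrays moved this count as well. For miR-689, day 14 against day 7 passed when any 1 of 7 arrays was left out, at 0.32 to 0.36. The same step of miR-1906 passed without replicate 1 of day 14 (0.34, adjusted p = 0.0352), and day 4 against day 1 passed for miR-690 (0.57, adjusted p = 0.0158) and miR-1906 (0.32, adjusted p = 0.044) without replicate 3 of day 14, the brightest array. Between day 4 and day 1 the unscaled arrays did not overlap for 2 of the 6 members, miR-690 and miR-1906, with day 4 above, as for 7.14% of the names tested.

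The array's control spots show how far the late arrays differed before any miRNA is considered. The labelling spike-ins, synthetic RNAs added before the dye reaction, gave 3006 ± 177 units (day 1), 2841 ± 256 (day 4), 2895 ± 346 (day 7), 2455 ± 168 (day 14) and 1718 ± 565 (day 42; SD, n = 4, otherwise n = 5). At day 42 the arrays had 2086, 2164, 1694 and 929 units, all below every array of day 1, where they had 3150, 3066, 2831, 3177 and 2805 units. Replicate 4 of day 42 was the lowest of all 24. The hybridization spike-ins, added after labelling, averaged 47798 units at day 42 and 48086 units at day 1, and spanned only 1.58-fold over all arrays. With the labelling spike-ins as the covariate on unscaled values, an alternative added after the data were seen, 0 of the 6 members were called between day 42 and day 1: the log2 difference was -0.036 for miR-690, 0.42 for miR-689 and 0.48 for miR-1906. Under that setting 211 of the 322 names were called, 80.1% of them higher, and the median difference was 1.18 over all names, beside 0.036 for the members.

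Of the other control probes, those named hur_1 and hur_4 ran beside some members. Their targets are not given in the sources used here. Across the 24 arrays, the unscaled signal of miR-690 correlated with hur_1 at Pearson's r = 0.91 and Spearman's rho = 0.87, with r = 0.86 without the 2 arrays farthest from the median of hur_1 and r = 0.88 within ages. miR-1906 correlated with hur_4 at r = 0.90 and rho = 0.90, with r = 0.84 without the 2 farthest arrays and 0.70 within ages. miR-709 had its strongest correlation with hur_4 as well, at r = 0.41. The pairs of miR-690 with hur_1 and of miR-1906 with hur_4 are the highest of 42 pairs of 6 members and 7 controls, picked after they were computed, over arrays that share ages and hybridizations, and carry no test. hur_1 averaged 64894 units at day 42 and 49752 units at day 1.

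**Figure D4:**
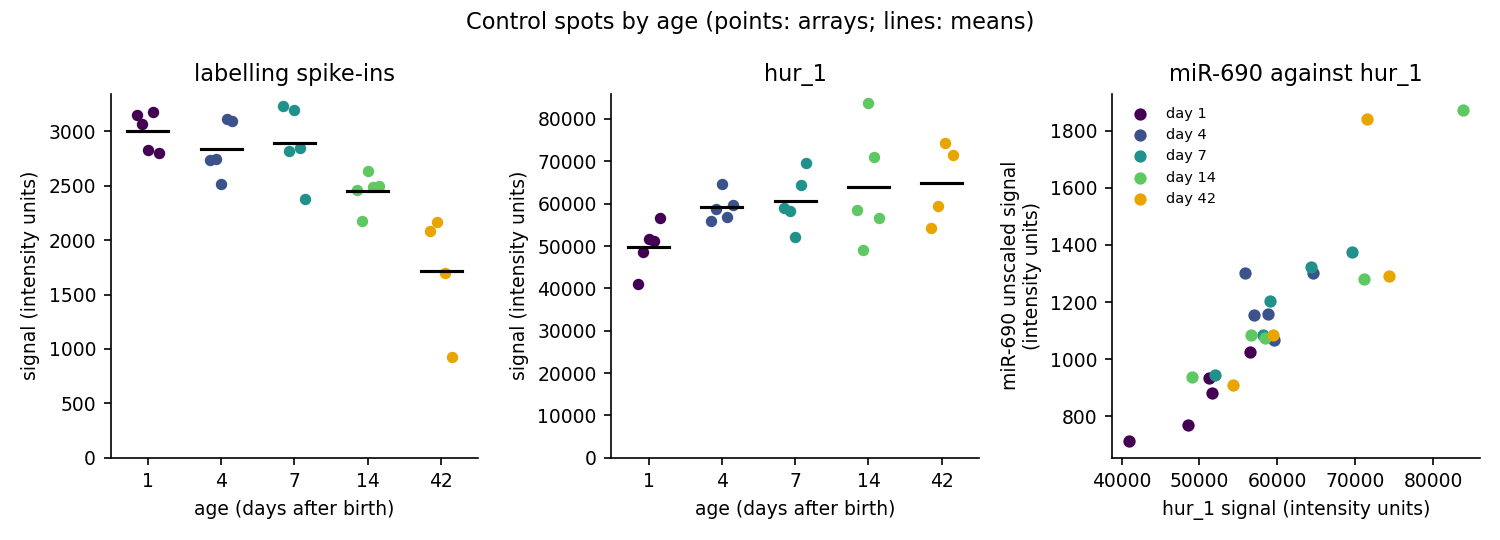
Control signals by age (points are arrays, lines means, intensity units) and the unscaled signal of miR-690 against hur_1. The labelling spike-ins fall to 1718 units on average at day 42, hur_1 averages 64894 units at day 42 and 49752 units at day 1, and miR-690 follows hur_1 across the 24 arrays (r = 0.91).

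The members did not all move as one. On the unscaled signal, r over the 24 arrays was 0.83 between miR-689 and miR-1906, 0.81 between miR-689 and miR-1897-3p, 0.79 between miR-690 and miR-1906, and 0.75 between miR-1906 and miR-1897-3p. miR-709 had r of 0.20 to 0.31 with each other member, and miR-805 had -0.02 to 0.30. After scaling, every pair lay between 0.69 and 0.97, all values being then divided by the same brightness.

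The probes of a name can be read separately. miR-690, miR-689, miR-1906 and miR-1897-3p each have 2 probes of 10 spots. They correlated over the 24 arrays at r = 0.99 for miR-690, 0.91 for miR-689, 0.96 for miR-1906 and 0.94 for miR-1897-3p. The 2 probes of miR-709 gave 9.97% and 90.0% of its signal and correlated at r = 0.84. The bright one averaged 4371 ± 871 units at day 42 and 3837 ± 374 units at day 1, and the dim one 499 ± 69.3 units at day 42 and 407 ± 40.4 units at day 1 (SD, n = 4 and 5). miR-805 has 4 probes of 5 spots and rests mainly on 1 of them. Probe 4 gave 72.5% of its signal and was well above background on 96.7% of spots. The others were so on 0.833%, 0.833% and 12.5% of spots, and probe 1 averaged -1.15 units. The values of miR-805 thus describe mostly 1 dim probe, at 35.1 ± 12.6 units at day 42 and 35.1 ± 9.53 units at day 1 (SD, n = 4 and 5).

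The names with the most similar scaled log2 signal over the 24 arrays were, for miR-709, mghv-miR-M1-2 at r = 0.92, miR-574-5p at 0.91 and miR-28* at 0.89. For miR-690 they were miR-99b at 0.95, miR-361 at 0.93 and miR-342-3p at 0.93. miR-494 came first for miR-689 (0.97), miR-1906 (0.95) and miR-1897-3p (0.95), with miR-671-5p also near miR-689 (0.90) and miR-1897-3p (0.91), miR-1224 near miR-689 (0.91), miR-532-3p near miR-1897-3p (0.91), and miR-423-5p (0.93) and miR-99b (0.92) near miR-1906. For miR-805 they were miR-370 at 0.82, miR-214 at 0.82 and miR-132 at 0.81. All of these values share the division by array brightness.

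Other lists give the members a frame. The let-7 family, well-established miRNAs that mark differentiated tissue, had a median slope on brightness of -0.40 over 9 names, and 6 of 9 were higher and 0 lower at day 42 against day 1, with a median difference of 0.44 at equal brightness. Of 39 herpesvirus names, which should find no target in a healthy lung, 3 were tested. Their median slope was -0.39 and 0 were called. Of 17 further names suspected of being pieces of other RNAs, miR-720, known as a transfer RNA fragment, was the 1 on the array. Its unscaled signal ran from 11709 to 45924 units, or 3.92-fold, with a slope of -0.37 and a difference of 0.26 at day 42 against day 1 (adjusted p = 0.150). That span was wider than the span of any of the 6 members.

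Mir1906-1 lies in Meg3, at the head of the imprinted region that runs through Rian to Mirg and holds many miRNAs made from the maternal chromosome. Of the 73 other names on the array from this region, a list drawn by position after the data were seen, 39 were tested. At day 42 against day 1, 38 of them were lower and 0 higher, with a median of -3.47 and a range from -5.60 to 0.34 at equal brightness. miR-1906, at 0.56 ± 0.16, lay above that whole range. This difference is not independent of the choice of miR-1906 by slope. It was -0.37 on the scaled values without the brightness term and -1.14 with another background correction (normexp). The region's range under those settings is not given here. The array also cannot tell the Meg3 copy of miR-1906 from the copy on chromosome X.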

How the data were processed

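Per the labels, 100 ng of total RNA from a Qiagen column kit carried the dye Cy3. The authors' deposited files hold several intensity values per spot. The one used here is the processed signal, background-subtracted by Agilent Feature Extraction 10.7.1.1, per the file headers. The deposited series table holds log2 values whose method is not given in the sources used here. It served as an alternative. Spots marked as outliers (319 to 523 per array) were left out, spots were averaged per probe and probes summed per name. Each array was divided by its 75th percentile over the 228 names detected on all arrays. Scaled values under 7.46 (2.90 on the log2 scale) were set to that floor.

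A name was fitted if some age had it detected on each of its arrays, which left 322. The fit used limma 3.58.1 (R 4.3.3): 5 ages plus log2 brightness, 18 residual degrees of freedom, two-sided, Benjamini-Hochberg per comparison, threshold 0.05. miR-805 was tested only at day 42 against day 1. P-values measure the spread between these arrays, whose number limits the precision. The members and lists were chosen with earlier results of these data known. Names in the text are the 6 members, the 3 names most like each, the lists, the cell type markers and the names with the lowest slopes on brightness. Tested on simulated data for day 42 against day 1 (322 names), the fit recovered 35% of 20 names changed by 0.5 on the log2 scale, 85% of those changed by 1 and 100% of those changed by 2, with 4.35% false among the calls. In the simulation, noise was independent between names, the names to change were drawn at random, and most names stayed unchanged. It did not imitate the choice of members by slope, so its false share does not apply to the members' calls. Folding used RNAfold 2.7.2, and reading and drawing Python 3.11.15 with pandas 2.3.3 and matplotlib 3.10.9. The normexp alternative used the raw median spot signal and the median background signal, with an offset of 50.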

Additional observations from a re-analysis of the deposited data

Results flagged for a closer look

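The scaled log2 signal of miR-689 on replicate 3 of day 14 was 7.19, while the other 4 arrays of that age lay between 7.76 and 7.97. It stood apart by 0.736 of the group's range. Its unscaled signal on that array was 311 units, inside the 249 to 341 units of the age, and the array was the brightest of the 24, at 4953 units. It was the 1 such array in 60 groups of member, age and scale examined, where chance gives about 1 in 20. A low scaled signal on a bright array is what miR-689 was chosen for. That rate therefore does not apply to this array, which is no separate finding.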

How the results depend on the processing

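At day 42 against day 1, 3 of 6 members were called. The count was 5 with scaling by the median or by the 75th percentile over all names, 1 (lower) with normexp background, 0 with the labelling spike-ins as covariate (added after the data were seen), and 1 to 4 when each array in turn was left out. Without the brightness term it was 2, both lower (miR-709 and miR-805). At day 14 against day 1, 2 of 5 were called. The count was 1 with quantile normalization, the deposited table, no detection filter, outlier spots kept, the 5 dimmest arrays left out, or the labelling spike-ins as covariate, 0 with normexp or the median spot signal as covariate, and 0 to 2 with single arrays left out. On the scaled values without the brightness term it was 3, all lower (miR-709, miR-689 and miR-1897-3p). In the other direction, miR-689 was called higher with the all-name percentile (0.56, adjusted p = 0.044) and on unscaled values without the brightness term (0.32, adjusted p = 0.0468). In the steps, 0 of 20 became 1 with median scaling, 4 with the all-name percentile or with quantile normalization, 5 with the deposited table, 3 with the median spot signal as covariate, and 0 to 2 with single arrays left out. The cause was not tested. Over the single members' age differences, 1091 alternatives kept direction and call, 40 added a call, 35 lost one and 74 turned the direction, 13 of them with a call before or after the turn. Without the brightness term, day 42 and day 14 against day 1 turned in miR-709 (-0.82 and -1.05), miR-690 (-0.47 and -0.59), miR-689 (-0.45 and -0.77), miR-1906 (-0.37 and -0.53) and miR-1897-3p (-0.66 and -0.94). So did day 4 against day 1 in miR-689 (-0.25), miR-1906 (-0.053) and miR-1897-3p (-0.21), day 7 against day 4 in miR-709 (-0.029) and miR-690 (-0.38), and day 14 against day 7 in miR-690 (-0.32), miR-689 (-0.031), miR-1906 (-0.087) and miR-1897-3p (-0.14). With normexp, day 42, day 14 and day 4 against day 1 and day 42 against day 14 turned in miR-689 (-0.71, -0.44, -0.53 and -0.27), miR-1906 (-1.14, -0.66, -0.68 and -0.48) and miR-1897-3p (-1.44, -0.88, -0.85 and -0.56), as did day 42 against day 14 in miR-690 (-0.10), day 14 against day 7 in miR-709 (0.0068) and the slopes of miR-1897-3p (0.091) and miR-805 (0.24). For miR-805, day 42 against day 1 was 0.064 with the all-name percentile, 0.37 after quantile normalization and 0.42 on the deposited values. For miR-709 it was -0.072 after quantile normalization, and day 14 against day 1 was -0.17 there, -0.11 on the deposited values, -0.032 with the median spot signal and -0.0079 with the labelling spike-ins as covariate. Day 14 against day 7 of miR-709 was 0.32 with the all-name percentile and 0.15 with median scaling. For miR-690, day 7 against day 4 was -0.029 (all-name percentile), -0.036 (median scaling), -0.00027 (quantile), -0.043 (normexp), -0.072 (median spot signal), -0.0092 (labelling spike-ins) and -0.022 (unscaled, no brightness term), and day 14 against day 7 was -0.089 (quantile), -0.088 (deposited) and -0.10 (labelling spike-ins). With the labelling spike-ins, day 42 was at -0.036 against day 1 and -0.34 against day 14 for miR-690, and against day 14 at -0.022 for miR-1906 and -0.0069 for miR-1897-3p. With single arrays left out, the turned differences ran between -0.098 and 0.073 for miR-709 (day 14 against day 7), and for miR-690 between -0.052 and 0.079 (day 7 against day 4), -0.060 and 0.21 (day 14 against day 7) and -0.18 and 0.21 (day 42 against day 14). The scaling also moved the median of all tested names at day 42 against day 1 away from -0.12 (members 0.42): to 0.27 with median scaling (members 0.81), 0.48 with the all-name percentile (1.02), 0.32 on the deposited values (0.86), 0.30 after quantile normalization (0.88), -1.43 with normexp (-0.93) and 1.18 with the labelling spike-ins (0.036). Of the names called, 39.7% were higher, against 55.4%, 64.8%, 61.2%, 59.4%, 17.0% and 80.1% under those settings. At day 14 against day 1, 85 of 170 called names were higher, against 67.0% (all-name percentile), 61.8% (deposited), 60.9% (quantile), 61.0% (normexp), 39.3% (scaled, no brightness term), 87.8% (labelling spike-ins) and 85.5% (unscaled, no brightness term, 71.4% at day 42 against day 1) of the calls. With normexp 59 names were called. Replicate numbers did not pair the arrays: same-number arrays of different ages correlated at -0.86 to 0.84, with a median of -0.02 over 46 pairs. With the replicate block the differences at day 42 against day 1 were 0.63 for miR-690, 0.53 for miR-689 and 0.63 for miR-1906, and all 3 stayed called. For the slide block they were 0.66, 0.49 and 0.59. Of the 4 probes of miR-805, 3 were rarely well above background, which limits what can be read from it.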
